A study of Mus musculus with 3 samples.

Results

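The genes described here are those of the classical interleukin 1 (IL1) system in mouse skin: the ligands Il1a and Il1b, the receptor antagonist Il1rn, the signalling receptor Il1r1, the decoy receptor Il1r2 and the co-receptor Il1rap. They were taken by symbol from the gene list of the deposited tables, and all 6 were found among 27998 genes. The study wounded male C57BL/6 mice aged 7 to 9 weeks in telogen, the resting phase of the hair cycle, by cutting a full-thickness piece of 1.0 cm by 0.5 cm from each side of the back. Cells released with collagenase D and DNase1 were profiled by droplet 3′ single-cell RNA sequencing from non-lesional dorsal skin, from wound bed 2 days after wounding and from wound bed 7 days after wounding. Each of these 3 groups was 1 library. The 3 libraries are therefore compared without replicates, no test across animals could be made, and the labels used here do not say how many mice went into a library. The animals carried no stated mutation or treatment other than the wound, and the series is about IL1 and WNT in dermal cells of the adipocyte lineage.

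IL1 alpha and IL1 beta bind the same receptor. IL1 alpha is active as its precursor and is held in epithelial cells, from which damage releases it. In contrast, IL1 beta is made mainly by myeloid cells and is cut by caspase 1 into its active form. Ligand-bound IL1R1 recruits IL1RAP, which also serves the IL33 receptor, and the pair signals through MYD88 to NF-kappaB; IL1RN occupies IL1R1 without recruiting IL1RAP, and IL1R2 binds ligand but has no signalling domain.

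In mm10 (GRCm38, GENCODE M21 annotation, 1-based) Il1a lay on the minus strand at chr2:129299610-129309972 and Il1b on the same strand at chr2:129364570-129371139, with 54597 bases between them. Il1rn lay on the plus strand of the same chromosome at chr2:24336853-24351494. The receptor genes Il1r2 (chr1:40074079-40125231) and Il1r1 (chr1:40225080-40317257) lay on the plus strand with 99848 bases between them, and Il1rap lay on the plus strand at chr16:26581704-26730117. All 6 are protein-coding genes. Reads count for a gene from its exons near the 3′ end, so the isoforms of Il1rn and Il1rap could not be told apart, and annotated transcripts overlap Il1a, Il1b, Il1r2 and Il1rap on the other strand and Il1r1 and Il1r2 on the same strand.

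The 250 bases before the annotated start are shown for the pair of neighbouring ligand genes and for the signalling receptor, since these are the members whose levels were higher in wounds than in non-lesional skin across the libraries and whose windows overlap no annotated exon. Sequences are from RefSeq (GRCm38.p6), written 5′ to 3′ on the strand of the gene, and capitals mark matches to the motifs searched on both strands. These were TTGCNNAA for C/EBP factors, TGANTCA for AP-1, which reads the same on both strands, TATAAA for the TATA box, and the NF-kappaB motif. The Il1a window is chr2:129309973-129310222 and the Il1b window chr2:129371140-129371389. Il1r1 has a pair of RefSeq starts, with windows chr1:40224830-40225079 (upstream start) and chr1:40266336-40266585 (downstream start), and both are shown since counts near the 3′ end do not tell which start was used.
Il1a: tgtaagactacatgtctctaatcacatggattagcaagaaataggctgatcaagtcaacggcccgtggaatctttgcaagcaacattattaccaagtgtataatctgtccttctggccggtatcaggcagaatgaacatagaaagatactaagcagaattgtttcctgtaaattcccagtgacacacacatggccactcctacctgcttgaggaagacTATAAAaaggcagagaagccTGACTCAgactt
Il1b: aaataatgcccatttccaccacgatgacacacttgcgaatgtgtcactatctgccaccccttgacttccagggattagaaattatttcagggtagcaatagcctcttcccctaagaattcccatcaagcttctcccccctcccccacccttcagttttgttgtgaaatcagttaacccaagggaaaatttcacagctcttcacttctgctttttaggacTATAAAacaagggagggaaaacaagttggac
Il1r1 upstream start: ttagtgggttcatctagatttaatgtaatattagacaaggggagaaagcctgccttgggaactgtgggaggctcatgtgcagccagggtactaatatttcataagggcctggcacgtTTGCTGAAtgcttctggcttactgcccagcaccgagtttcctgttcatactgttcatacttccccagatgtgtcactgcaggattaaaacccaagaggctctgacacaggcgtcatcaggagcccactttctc
Il1r1 downstream start: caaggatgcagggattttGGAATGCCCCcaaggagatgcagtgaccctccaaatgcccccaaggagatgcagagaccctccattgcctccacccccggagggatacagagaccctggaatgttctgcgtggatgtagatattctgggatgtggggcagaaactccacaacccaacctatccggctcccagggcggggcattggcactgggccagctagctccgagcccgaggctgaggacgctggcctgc

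The ligand windows both held TATAAA, its first base at -32 in Il1a and at -31 in Il1b, and Il1a also held TGANTCA at -12. The upstream Il1r1 window held TTGCNNAA at -133. The downstream Il1r1 window held the NF-kappaB motif on the other strand with its first base at -232, and neither held TATAAA. The NF-kappaB motif had no match in the windows of Il1a, Il1b and the upstream start of Il1r1. Among 32851 mouse promoter windows of the same length, 12.4% held TATAAA, 6.75% TGANTCA, 9.56% TTGCNNAA and 45.8% the NF-kappaB motif. A match describes the letters in the window and nothing about binding.

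The libraries held 10857 cell barcodes in non-lesional skin, 8707 at day 2 and 7317 at day 7, with 123088680, 138046172 and 102345327 unique molecular identifiers (UMIs, 1 per captured molecule) in the same order. After removal of barcodes with few genes, many mitochondrial UMIs or high doublet scores, 9354, 7339 and 4714 cells remained (86.2%, 84.3% and 64.4%). Barcodes with over 10% mitochondrial UMIs numbered 368 in non-lesional skin, 372 at day 2 and 1632 at day 7. The libraries shared 14 to 24 barcodes pairwise. Cells were put into classes by the mean log level of a list of marker genes, set against the highest-scoring cells of that list, and a class is written "X-like" for that reason. None of the 6 genes is among the markers. Fibroblast-like cells numbered 6323, 4050 and 2537 in non-lesional skin, day 2 and day 7. Neutrophil-like cells numbered 6, 1887 and 156, monocyte- or macrophage-like cells 67, 144 and 212, and dendritic-like cells 59, 393 and 256. Cells of the T, NK or innate lymphoid class (lymphoid-like cells below) numbered 364, 126 and 573, and keratinocyte-like cells 1490, 1 and 88, so that the day 2 library gives no keratinocyte values. Neutrophil-like cells were shallow, with a median of 913 UMIs at day 2, whereas fibroblast-like cells had medians of 9396 UMIs in non-lesional skin, 26266.5 at day 2 and 24677 at day 7. Levels below are counts per 1000000 UMIs of the class in that library (CPM). They are not divided by length. Their 95% intervals (exact Poisson for levels, exact binomial for shares and ratios) cover counting error only, not differences between cells or between animals.

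Over whole libraries the ligands, the antagonist and Il1r1 were higher in wounds, and Il1r2 and Il1rap were lower. Il1b had 22.5 CPM in non-lesional skin, 458 CPM at day 2 and 269 CPM at day 7, from 2773, 63276 and 27542 UMIs. Il1a had 1.43, 17.9 and 8.29 CPM, and Il1rn 25.4, 125 and 45.4 CPM in the same order. Day 2 was the highest of the 3 libraries for each of these genes: the ratio of day 2 to non-lesional skin was 20.3 (19.6 to 21.1) for Il1b, 12.5 (10.7 to 14.7) for Il1a and 4.91 (4.73 to 5.11) for Il1rn. Il1r1 had 54.3, 148 and 80.9 CPM. The decoy Il1r2 had 250.1, 63.7 and 47.7 CPM, and Il1rap 46.1, 24.3 and 21.7 CPM. The day 2 library was thus 2.72 times (2.64 to 2.80) the non-lesional one for Il1r1, but 3.93 times lower (3.84 to 4.02) for Il1r2 and 1.90 times lower (1.82 to 1.98) for Il1rap. At day 7 the library ratio to non-lesional skin was 11.9 (11.5 to 12.4) for Il1b, 1.79 (1.71 to 1.87) for Il1rn and 1.49 (1.44 to 1.54) for Il1r1, and Il1r2 was 5.24 times lower (5.09 to 5.40). These library values move with which cells were captured, so the classes are described next.

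Il1b, the secreted ligand of myeloid cells, was highest in neutrophil-like cells, at 14747 CPM (14579 to 14917) at day 2 and 15272 CPM (14744 to 15814) at day 7. Monocyte- or macrophage-like cells had 1221 CPM (1101 to 1351) in non-lesional skin, 10836 CPM (10508 to 11170.5) at day 2 and 3486 CPM (3400 to 3574) at day 7. Dendritic-like cells had 2028 CPM (1904 to 2158), 6598 CPM (6480 to 6718) and 5726 CPM (5620 to 5834). At day 2 the order was neutrophil-like, monocyte- or macrophage-like, dendritic-like, and at day 7 neutrophil-like, dendritic-like, monocyte- or macrophage-like. Counting intervals of neighbours did not overlap, but they do not cover differences between cells, and the order was not tested. All other compared classes lay below 100 CPM in every library. In monocyte- or macrophage-like cells Il1b was 8.88 times (7.99 to 9.89) higher at day 2 than in non-lesional skin and 2.86 times (2.57 to 3.18) higher at day 7. The day 7 level of this class was 3.11 times lower (2.99 to 3.23) than its day 2 level. The class took 113 of 363 day 2 cells and 201 of 315 day 7 cells of the cluster led by Pf4, Arg1 and Rsad2. Its levels and ratios may therefore depend on the rule that sets the classes. Dendritic-like cells were 3.25 times (3.05 to 3.47) and 2.82 times (2.65 to 3.02) above non-lesional skin at day 2 and day 7. In neutrophil-like cells the ratio of day 7 to day 2 was 1.04 (0.998 to 1.07), and its direction turned when libraries were scaled by TMM factors (trimmed mean of M values), which take the genes that differ least as the base.

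The Il1b load was uneven between cells. Neutrophil-like cells carried a median of 11 Il1b UMIs at day 2 (quartiles 5 and 21, highest 215) and of 14.5 at day 7 (quartiles 7 and 28). Dendritic-like cells carried medians of 4, 7 and 7 UMIs in non-lesional skin, day 2 and day 7, with single cells holding up to 172, 309 and 377. In monocyte- or macrophage-like cells of non-lesional skin the median was 0 and the top 10% of cells held 89.9% of the Il1b UMIs, whereas the median was 9.5 at day 2 and 3.5 at day 7. The make-up of this class also differed: 67.2% of its non-lesional cells lay in a cluster led by Retnla, C1qa and C1qb, 78.5% of its day 2 cells and 94.8% of its day 7 cells in one led by Pf4. A further 13.9% of its day 2 cells (20 of 144) and 1.42% of its day 7 cells lay in the cluster of neutrophil-like cells, led by S100a8, S100a9 and Retnlg. Neutrophil markers summed to 347 CPM in it in non-lesional skin (5 of 10 detected), 2453 CPM at day 2 (9 of 10) and 1050.0 CPM at day 7 (8 of 10). The day 2 sum was 2.49% of the neutrophil-like level while Il1b stood at 73.5% of it. The rule that sets the classes limits how high neutrophil markers can be in this class, so the first of these shares is in part fixed by that rule. Among its subsets, cells with resident macrophage markers had 305, 7185 and 1306 CPM of Il1b in non-lesional skin, day 2 and day 7 (52, 14 and 79 cells). Those with early monocyte markers had 8729 CPM at day 2 and 8350 CPM at day 7 (21 and 18 cells).

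Il1a had far fewer UMIs than Il1b in myeloid cells and another distribution. At day 2 it had 643 CPM (565 to 728) in monocyte- or macrophage-like cells and 591 CPM (558 to 626) in neutrophil-like cells, levels whose intervals overlapped. At day 7 neutrophil-like cells had 411 CPM (328 to 508) and monocyte- or macrophage-like cells 235 CPM (213 to 258). In non-lesional skin monocyte- or macrophage-like cells had 29.1 CPM from 9 UMIs, so that their day 2 level was 22.1 times (11.4 to 48.8) higher and their day 7 level 8.06 times (4.2 to 17.7) higher. Dendritic-like cells stood apart: with 2028 to 6598 CPM of Il1b they had 0 Il1a UMIs in non-lesional skin, 29 at day 2 (16.1 CPM) and 3 at day 7 (1.55 CPM). Their Il1a UMIs per Il1b UMI were 0.00245 at day 2 and 0.000270 at day 7, against 0.0593 and 0.0674 in monocyte- or macrophage-like cells. Keratinocyte-like cells, the epithelial source of IL1 alpha, had 3.66 CPM (1.67 to 6.94) at day 7 and 4.33 CPM (3.65 to 5.11) in non-lesional skin, and these intervals overlapped. Their Il1a UMIs per Il1b UMI, 0.225 at day 7 and 0.490 in non-lesional skin, were above those of monocyte- or macrophage-like cells in the same libraries (0.0674 and 0.0239). In non-lesional skin 1 keratinocyte-like cell held 161 of the 292 Il1b UMIs of the class, so the size of that ratio depends on 1 cell.

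**Figure D1:**
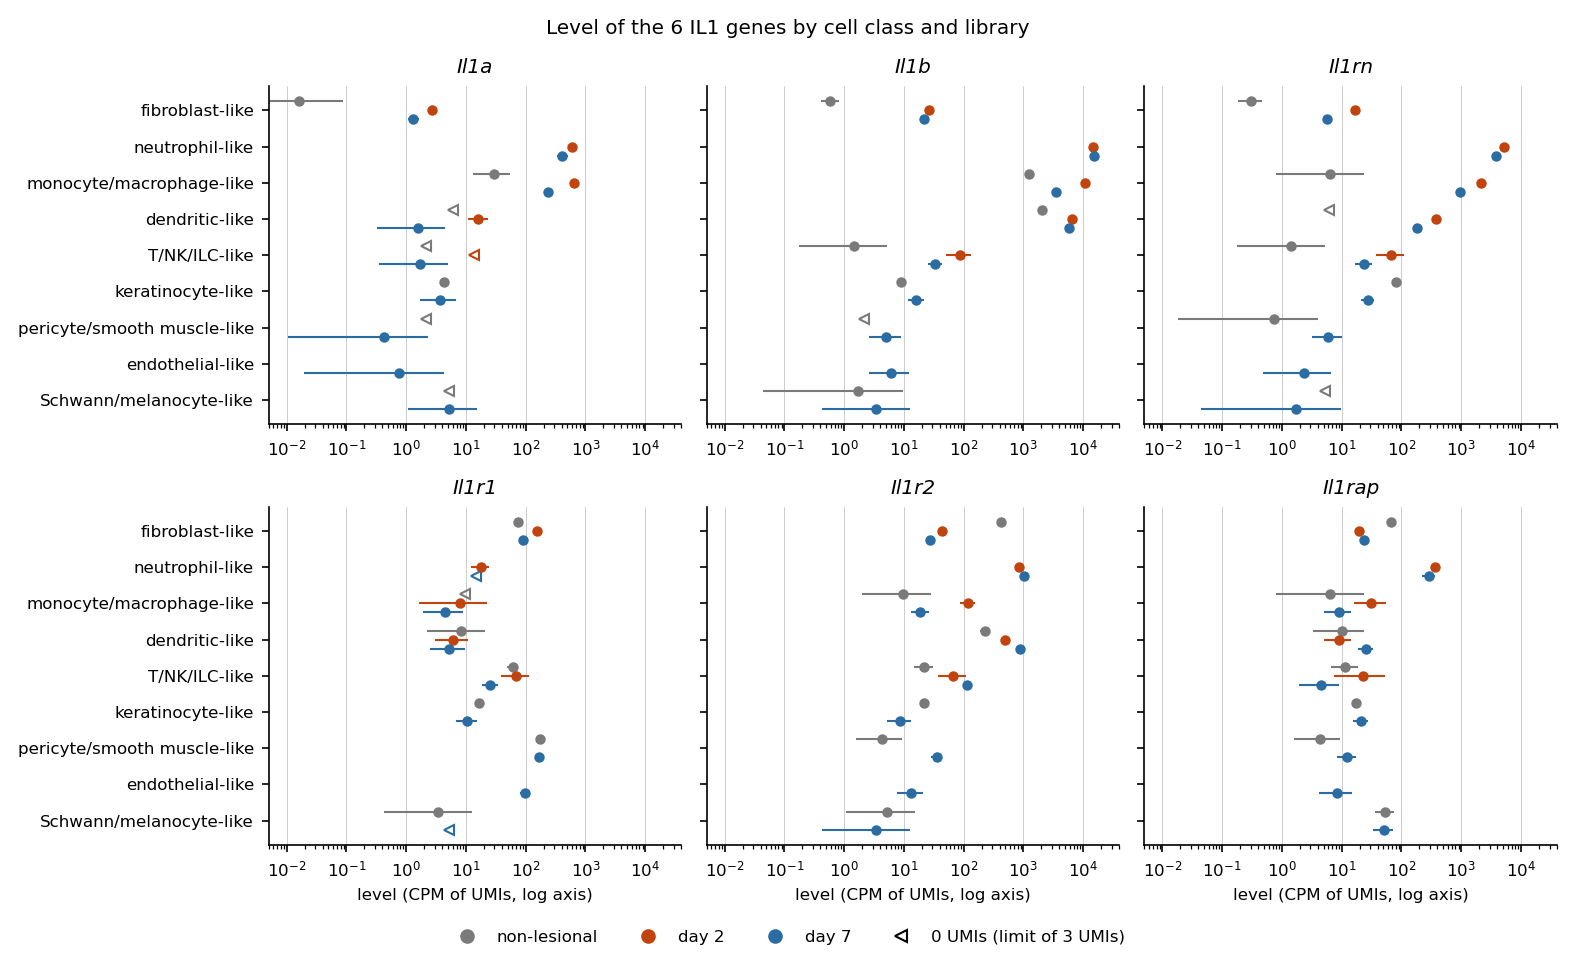
Levels of the 6 genes by class, 1 panel a gene, in CPM on a log axis. Points are libraries (non-lesional, day 2 and day 7) with exact 95% Poisson bars for counting error, and open triangles mark 0 UMIs at the limit of 3 UMIs. Il1b reaches 14747 CPM in neutrophil-like cells at day 2, and Il1r2 in fibroblast-like cells has 420 CPM in non-lesional skin, 43.9 CPM at day 2 and 26.9 CPM at day 7.

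Il1rn, the antagonist that blocks IL1R1, had most of its captured UMIs in keratinocyte-like cells in non-lesional skin and in myeloid cells in wounds. Such shares depend on which cells were captured. Keratinocyte-like cells numbered 1490, 1 and 88 in non-lesional skin, day 2 and day 7, and neutrophil-like cells 6, 1887 and 156. Of the Il1rn UMIs in kept cells, keratinocyte-like cells held 96.0% in non-lesional skin (2659 of 2769). At day 2 neutrophil-like cells held 65.8%, and at day 7 monocyte- or macrophage-like cells held 42.1% and neutrophil-like cells 19.3%. Its level in keratinocyte-like cells was 27.2 CPM (21.1 to 34.6) at day 7 and 80.6 CPM (77.5 to 83.7) in non-lesional skin, 2.96 times lower (2.32 to 3.83) in the wound. The direction was the same in cells with suprabasal markers, with 52.0 CPM (36.4 to 72.0) at day 7 and 109 CPM (104 to 114) in non-lesional skin, and in cells with basal markers, with 17.3 CPM and 50.7 CPM. The day 7 class was smaller and held a larger share of basal cells: 67.0% of it, against 41.4% in non-lesional skin, lay in a cluster led by Krt15, Krt5 and Krt14. Neutrophil markers in it summed to 732 CPM at day 7 and 73.2 CPM in non-lesional skin. At day 7 that was 1.05% of the neutrophil-like level, while Il1rn stood at 0.720% and Il1b at 0.106% of it, and what part of these UMIs is free RNA was not tested.

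In non-lesional skin Il1rn was near absent from monocyte- or macrophage-like and dendritic-like cells, whereas the 6 neutrophil-like cells there held 9 UMIs (850.3 CPM, 389 to 1614). Monocyte- or macrophage-like cells had 2 UMIs (6.48 CPM) in non-lesional skin, 831 UMIs (2171 CPM, 2026 to 2324) at day 2 and 1705 UMIs (949 CPM, 904 to 995) at day 7. Dendritic-like cells had 0 UMIs in non-lesional skin, where 3 UMIs would be 6.11 CPM, 373 CPM (345 to 402) at day 2 and 179 CPM (160.3 to 198.5) at day 7. Against that limit the level was 61.0-fold higher at day 2 and 29.2-fold higher at day 7. The lower ends of the counting intervals of these ratios were 49.5 and 23.7. In monocyte- or macrophage-like cells the ratio to non-lesional skin rests on the 2 UMIs and was 335 (92.5 to 2773) at day 2 and 146 (40.5 to 1211) at day 7. Neutrophil-like cells had the highest level, with 3778 CPM (3518 to 4053) at day 7 and 5282 CPM (5182 to 5385) at day 2, 1.40 times lower (1.30 to 1.51) at day 7. Within the dendritic-like class, cells with markers of maturation held more, at 578 CPM at day 2 and 264 CPM at day 7, than cells of no subset, at 173 CPM and 94.9 CPM. Neutrophil markers in dendritic-like cells summed to 1.00% of their neutrophil-like level at day 2 and 0.832% at day 7, while Il1rn there stood at 7.05% and 4.73%.

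The number of Il1rn UMIs per Il1b UMI sets the antagonist against the ligand within a class. Capture may differ between transcripts, so that the ratio is read between libraries and classes rather than as a ratio of proteins. Over whole libraries it was 1.13 (1.07 to 1.19) in non-lesional skin, 0.272 (0.268 to 0.277) at day 2 and 0.169 (0.163 to 0.174) at day 7. Keratinocyte-like cells had more antagonist than Il1b transcript, with a ratio of 1.68 (1.12 to 2.54) at day 7 and 9.11 (8.07 to 10.3) in non-lesional skin. There 1 cell held 161 of the 292 Il1b UMIs of the class, so the size of that ratio depends on 1 cell. All myeloid classes lay under 1. Neutrophil-like cells had 0.247 (0.229 to 0.268) at day 7 and 0.358 (0.35 to 0.366) at day 2. Monocyte- or macrophage-like cells ran the other way between wounds, with 0.00531 (0.000640 to 0.0193) in non-lesional skin, 0.20 (0.186 to 0.216) at day 2 and 0.272 (0.258 to 0.287) at day 7. Dendritic-like cells stayed lowest of the 3 myeloid classes in both wounds, with 0.0565 (0.0521 to 0.0610) at day 2 and 0.0312 (0.0279 to 0.0347) at day 7.

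**Figure D2:**
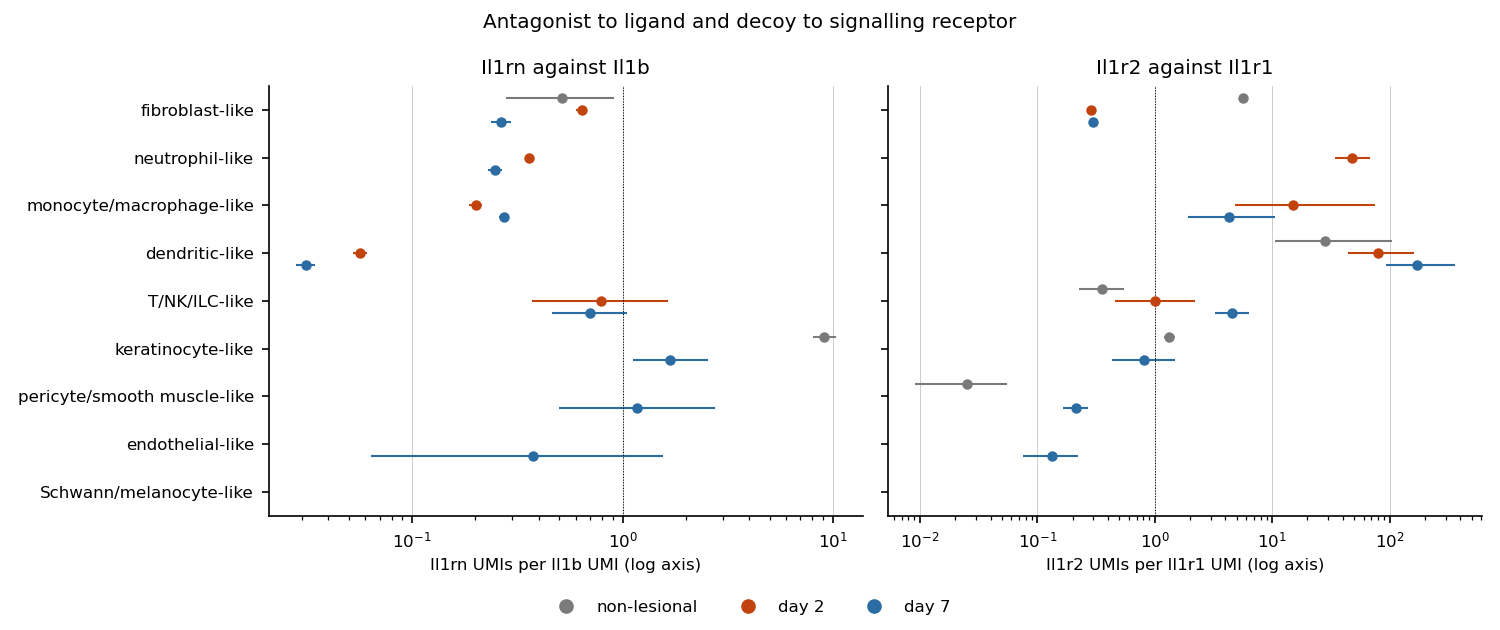
UMI ratios by class and library on log axes, with Il1rn per Il1b UMI in one panel and Il1r2 per Il1r1 UMI in the other. Points are non-lesional skin, day 2 and day 7 with exact 95% binomial bars, and the dotted line marks 1. Keratinocyte-like cells lie above 1 for Il1rn per Il1b, and fibroblast-like cells cross the line for Il1r2 per Il1r1, with 5.67 in non-lesional skin, 0.284 at day 2 and 0.296 at day 7.

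Which cells held the ligand transcripts differed between the libraries. Of the Il1b UMIs in kept cells of non-lesional skin, dendritic-like cells held 40.6%, monocyte- or macrophage-like cells 15.4% and keratinocyte-like cells 11.9%. The last share rests largely on 1 cell, which held 161 of the 292 Il1b UMIs of the class. At day 2 neutrophil-like cells held 49.4% (48.9 to 49.8), dendritic-like cells 20% and monocyte- or macrophage-like cells 6.99%. A further 15.8% lay in cells of no class. The cluster led by Pf4, Arg1 and Rsad2 held 363 cells of the day 2 library, of which 113 were in the monocyte- or macrophage-like class. The 6.99% therefore depends on the rule that sets the classes. At day 7 dendritic-like cells held 43.8%, monocyte- or macrophage-like cells 24.8% and neutrophil-like cells 12.5%. For Il1a the leading class was another in each library: keratinocyte-like cells with 92.9% in non-lesional skin (143 of 154 UMIs), neutrophil-like cells with 51.2% at day 2, and monocyte- or macrophage-like cells with 56.3% at day 7. These shares depend on how many cells of each class passed the limits on genes per cell, since most neutrophil-like cells are shallow: the day 2 share of Il1b in neutrophil-like cells was 28.6% when 500 genes per cell were required in place of 200.

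**Figure D3:**
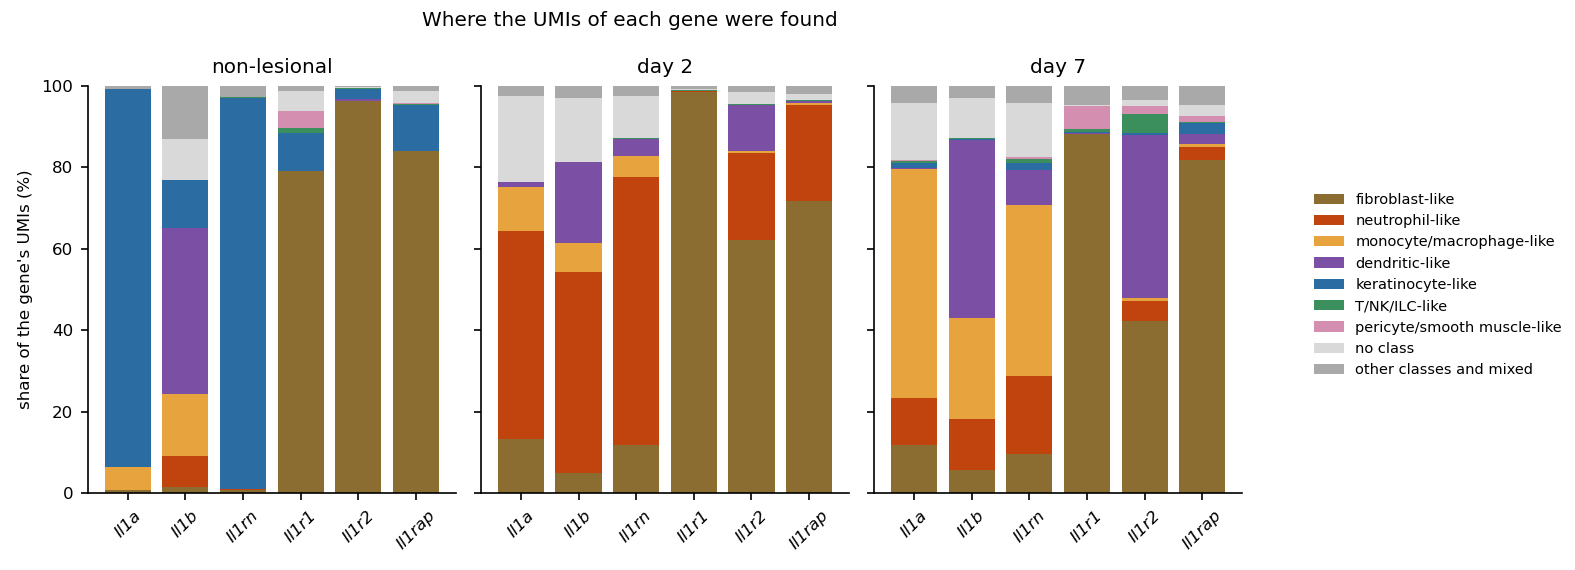
Share of the UMIs of each gene in kept cells that lay in each class, as stacked bars in percent, with 1 panel for non-lesional skin, 1 for day 2 and 1 for day 7. Il1rn lies 96.0% in keratinocyte-like cells in non-lesional skin and 65.8% in neutrophil-like cells at day 2, and Il1r1 lies mostly in fibroblast-like cells in each library.

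Fibroblast-like cells carried few ligand UMIs in all libraries. Il1b had 0.589 CPM in non-lesional skin (37 UMIs), 26.5 CPM at day 2 and 21.4 CPM at day 7, and Il1rn 0.302, 17.0 and 5.67 CPM. Set against neutrophil-like cells of the same library, the Il1b level was 0.180% at day 2 and 0.140% at day 7, and the summed level of the neutrophil markers was 0.183% and 0.119% (10 of 10 markers detected at day 2). These shares were alike, and what part of the Il1b UMIs of fibroblast-like cells is free RNA was not tested. The rule that sets the classes also limits how high neutrophil markers can be in this class. Il1rn at day 2 stood at 0.321% and Il1a at 0.461%, above the share of the markers. A few cells held most of the signal: the top 10% of fibroblast-like cells carried 66.4% of the Il1b UMIs at day 2 and 92.6% at day 7, where 1 cell had 189.

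Il1r1, the receptor that signals, was highest in fibroblast-like, mural and endothelial cells and in some lymphoid cells, and keratinocyte-like cells held 9.21% of its UMIs in kept cells of non-lesional skin (542 of 5888) at a lower level. In fibroblast-like cells it had 74.1 CPM (72.0 to 76.2) in non-lesional skin, 154 CPM (152 to 157) at day 2 and 91.1 CPM (88.8 to 93.3) at day 7, from 4655, 17146 and 6182 UMIs. These cells held 79.1%, 98.6% and 88.2% of its UMIs in kept cells. The day 2 level was 2.08 times (2.02 to 2.15) that of non-lesional skin, a log2 fold change of 1.01 with 5 CPM added to both levels, and 0.77 under TMM factors. The day 7 level was 1.23 times (1.18 to 1.28) that of non-lesional skin, with a log2 fold change of 0.28 that became -0.12 under TMM factors. Between wounds it was 1.70 times lower (1.65 to 1.75) at day 7 than at day 2. Fibroblast markers summed to 187391, 42137 and 97196 CPM in this class in non-lesional skin, day 2 and day 7, and their part in the Il1r1 values was not tested. At day 2, dividing fibroblast-like cells (2345) had 149 CPM of Il1r1 and the others (1705) 168 CPM.

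Pericyte- or smooth muscle-like cells had the highest Il1r1 level of the classes with 50 or more cells at day 7 and in non-lesional skin, with 167 CPM (151 to 184) and 174 CPM (153 to 197), a ratio of 0.958 (0.814 to 1.13). Endothelial-like cells had 97.3 CPM (81.1 to 116) at day 7, not separable from fibroblast-like cells, and 82.2 CPM (52.1 to 123) in the 39 cells of non-lesional skin, whereas the 44 lymphatic endothelial-like cells of non-lesional skin held 1 UMI. Lymphoid-like cells had 60.4 CPM (48.2 to 74.8) in non-lesional skin, 67.8 CPM (37.9 to 112) at day 2 and 25.3 CPM (18.4 to 33.8) at day 7. Within them, cells with markers of gamma delta T cells or type 3 innate lymphoid cells, which respond to IL1 beta with IL17, had 39 of the 84 UMIs in non-lesional skin in 29 cells, or 294 CPM (209 to 401), and 13 UMIs or 232 CPM in 14 cells at day 7. Keratinocyte-like cells had 10.6 CPM at day 7 and 16.4 CPM (15.1 to 17.9) in non-lesional skin. Myeloid classes had few Il1r1 UMIs. Monocyte- or macrophage-like cells had 0, 3 and 8 in non-lesional skin, day 2 and day 7. Their day 2 level was 5.08% of that of fibroblast-like cells, against 5.69% for the fibroblast markers. The 35 UMIs of neutrophil-like cells at day 2 (17.6 CPM) were 11.4% of the fibroblast-like level. The fibroblast markers there also stood at 11.4% of theirs, and what part of these UMIs is free RNA was not tested.

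Il1r2, the decoy, had the most UMIs of the 6 genes in fibroblast-like cells of non-lesional skin, and had a lower level in that class in wounds. It had 420 CPM (415 to 425) in non-lesional skin, 43.9 CPM (42.6 to 45.1) at day 2 and 26.9 CPM (25.7 to 28.2) at day 7, and these cells held 96.2%, 62.2% and 42.3% of its UMIs. In non-lesional skin the median fibroblast-like cell had 3 UMIs (quartiles 1 and 6, highest 42). The level was 9.58 times lower (9.29 to 9.87) at day 2 and 15.6 times lower (14.9 to 16.4) at day 7 than in non-lesional skin. Scaling did not change these calls: under TMM factors the log2 fold changes were -3.36 and -4.12. The class lay mostly in different clusters in each library. At day 2, 51.5% of it lay in the cluster led by Cxcl14, Saa3 and Saa1 and 46.7% in that led by Csf3, Thbd and Ereg, which held 3 and 0 cells of non-lesional skin. At day 7, 61.0% lay in the cluster led by Prss35, Tnn and Ptn, which held 0. The large non-lesional clusters, led by Cdh4, Smpd3 and Myoc, held 35.3%, 26.3% and 16.6% of the class there, so that a lower level per cell and other fibroblasts cannot be told apart. Il1r2 in fibroblast-like cells at day 2 stood at 5.22% of its neutrophil-like level, above the 0.183% of the neutrophil markers.

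In dendritic-like, lymphoid-like and pericyte- or smooth muscle-like cells Il1r2 was higher in wounds. Dendritic-like cells had 228 CPM (188 to 274) in non-lesional skin, 490.0 CPM (458 to 523) at day 2 and 892 CPM (850.0 to 935) at day 7, or 2.15 times (1.76 to 2.64) and 3.91 times (3.23 to 4.78) the non-lesional level. The day 2 call is close to the 2-fold limit, with a log2 fold change of 1.09 that was 0.91 under TMM factors. The make-up of the class differed: the cluster led by Ccl22, Ccr7 and Tbc1d4 held 1.69% of it in non-lesional skin, 38.7% at day 2 and 35.9% at day 7, the rest lying almost wholly in that led by Cd74. Dendritic-like cells without markers of maturation had 233, 641 and 1113 CPM of Il1r2 and 1848, 7392 and 5967 CPM of Il1b in non-lesional skin, day 2 and day 7, so that both were also higher in wounds among these cells. Those with such markers had 334 CPM of Il1r2 at day 2 and 665 CPM at day 7, and only 3 were found in non-lesional skin. Neutrophil-like cells had 1016 CPM (883 to 1163) at day 7 and 841 CPM (801 to 882) at day 2. The levels of neutrophil-like and dendritic-like cells overlapped in their intervals at day 7. Lymphoid-like cells had 21.6 CPM (14.6 to 30.8) in non-lesional skin, 67.8 CPM (37.9 to 112) at day 2 and 115 CPM (99.4 to 131) at day 7. In wounds most of it lay in cells with markers of regulatory T cells, which suppress immune responses: 11 of 30 UMIs in non-lesional skin, 15 of 15 at day 2 and 188 of 204 at day 7, at 43.1, 197 and 176 CPM. These cells made up 58 of 364 of the class in non-lesional skin, 35 of 126 at day 2 and 275 of 573 at day 7. Dendritic markers in lymphoid-like cells at day 7 summed to 2.78% of their dendritic-like level, while Il1r2 stood at 12.9% of its own. Pericyte- or smooth muscle-like cells had 35.6 CPM (28.4 to 44.1) at day 7 and 4.34 CPM (1.60 to 9.46) in non-lesional skin, 8.19 times (3.61 to 23.0) higher. Fibroblast markers there summed to 18634 CPM at day 7, 19.2% of the fibroblast-like level, and to 3708 CPM in non-lesional skin, while Il1r2 stood at 132% of the fibroblast-like level at day 7. In keratinocyte-like cells Il1r2 had 8.53 CPM (5.28 to 13) at day 7 and 21.9 CPM (20.3 to 23.5) in non-lesional skin, with a log2 fold change of -0.99 that was -1.06 under TMM factors.

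The balance of decoy to signalling receptor in fibroblast-like cells lay on the other side of 1 in wounds, with 5.67 Il1r2 UMIs per Il1r1 UMI (5.49 to 5.85) in non-lesional skin, 0.284 (0.275 to 0.293) at day 2 and 0.296 (0.280 to 0.311) at day 7. In lymphoid-like cells it ran the opposite way, with 0.357 in non-lesional skin, 1.00 at day 2 and 4.53 (3.27 to 6.41) at day 7. Pericyte- or smooth muscle-like cells had 0.214 (0.167 to 0.271) at day 7 and 0.025 (0.00908 to 0.0552) in non-lesional skin.

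Il1rap, the shared co-receptor, had 67.5 CPM (65.5 to 69.6) in fibroblast-like cells of non-lesional skin, 19.3 CPM (18.5 to 20.2) at day 2 and 23.8 CPM (22.6 to 25) at day 7. It was 3.49 times lower (3.31 to 3.68) at day 2 and 2.84 times lower (2.68 to 3.01) at day 7 than in non-lesional skin. Schwann- or melanocyte-like cells had 50.3 CPM (33.7 to 72.2) at day 7 and 53.4 CPM (36.3 to 75.9) in non-lesional skin, a ratio of 0.941 (0.547 to 1.61), and hardly any Il1r1 UMIs (0 and 2). The highest levels were in neutrophil-like cells, with 285 CPM (217 to 368) at day 7 and 358 CPM (332 to 385) at day 2. These cells held 0 Il1r1 UMIs at day 7 and 35 at day 2. Il1rap UMIs per Il1r1 UMI in fibroblast-like cells were 0.911 in non-lesional skin, 0.125 at day 2 and 0.261 at day 7. In keratinocyte-like cells Il1rap had 20.7 CPM (15.4 to 27.2) at day 7 and 17.1 CPM (15.7 to 18.6) in non-lesional skin, and these intervals overlapped.

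The receptors also varied among fibroblast-like cells of 1 library. Clusters were built with all variable genes, so their levels are a description. In non-lesional skin the cluster led by Smpd3, Efhd1 and Pi16, the last a marker of interstitial progenitor fibroblasts, had the highest Il1r1 and Il1r2, with 131 and 849.5 CPM in 1666 cells. That led by Cdh4, Gal and Wfdc12 had 42.1 CPM of Il1r1 and 292 CPM of Il1r2 but the highest Il1rap of the 5 large non-lesional clusters, 96.2 CPM, in 2230 cells. That led by Coch, Fmod and Robo2 had the lowest Il1r2 of these, 120.0 CPM in 523 cells. All 5 held more Il1r2 than any day 2 cluster. The day 2 clusters resembled each other, with 145 CPM of Il1r1 and 48.9 CPM of Il1r2 in the one led by Cxcl14, Saa3 and Saa1 (2086 cells) and 163 and 39.3 CPM in the one led by Csf3, Thbd and Ereg (1893 cells). At day 7 the large cluster led by Prss35, Tnn and Ptn (1547 cells) had 101.0 and 23.3 CPM, and the one led by Dlk1, H19 and Col14a1 (376 cells) 52.3 and 18.9 CPM. The cluster led by C6, Tnmd and Pltp, found in both libraries, had 136 CPM of Il1r2 in 111 cells at day 7 and 334 CPM in 825 cells of non-lesional skin. A day 7 cluster led by Wif1, Corin and Lrrn1 (106 cells) had 8.85 CPM of Il1r1 from 7 UMIs, the lowest of the 13 cluster and library sums.

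**Figure D4:**
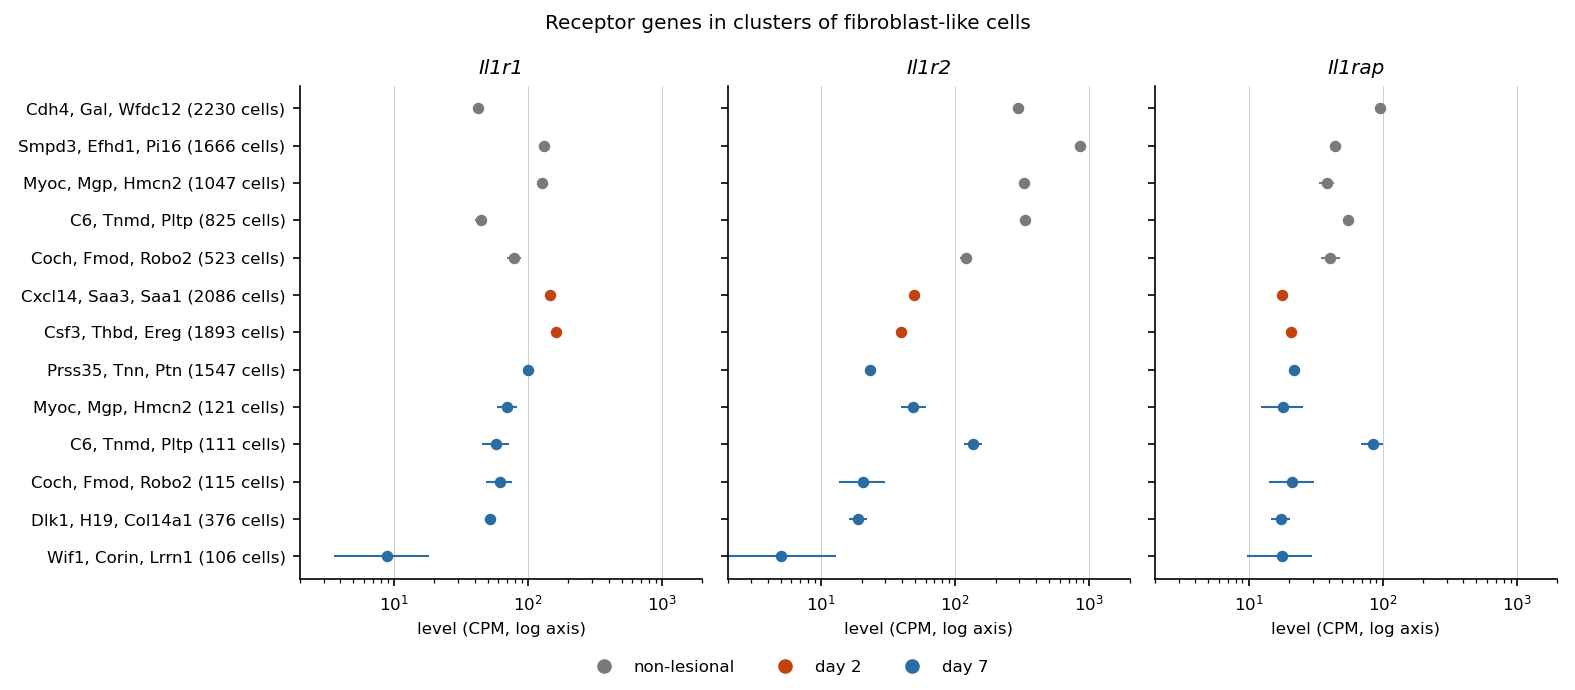
Il1r1, Il1r2 and Il1rap in CPM (log axis) in 13 sums of fibroblast-like cells by cluster and library, named by their leading genes with the number of cells. Points carry exact 95% Poisson bars for counting error. The Il1r2 panel places the 5 large non-lesional clusters between 120.0 and 849.5 CPM and the day 2 clusters at 48.9 and 39.3 CPM.

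Counts of members past 2-fold were set beside all genes measured in the same class (at least 10 UMIs over the 2 libraries, 5 CPM added to each level). In fibroblast-like cells at day 2 over non-lesional skin 3 of 6 members were higher (Il1b, Il1rn and Il1r1) and 2 lower (Il1r2 and Il1rap), against 11.1% of 16119 genes higher and 6.3% lower. Of all such calls 63.7% were higher, and 48.8% under TMM factors. Day 7 over non-lesional skin gave 2 higher (Il1b, and Il1rn with a log2 fold change of 1.01 that was 0.89 under TMM factors) and 2 lower (Il1r2 and Il1rap), against 7.97% and 4.07%. There 66.2% of calls were higher, and 38.7% under TMM factors, which moved the median log2 fold change of all genes from 0.14 to 0.0085. Between wounds, at day 7 over day 2, none was higher and 1 lower (Il1rn), against 3.04% and 1.6%, with 65.5% of calls higher and 53.0% under TMM factors. The Il1b calls in these cells rest on levels whose share of the neutrophil-like level was near that of the neutrophil markers.

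In monocyte- or macrophage-like cells 5 members could be measured at day 2 over non-lesional skin and all 5 were higher, against 13.3% of genes higher and 19.4% lower. Calls there were 40.6% higher, and 50.8% under TMM factors. Il1r2 and Il1rap in that comparison rest on 3 and 2 non-lesional UMIs. At day 2 they had 118 and 31.4 CPM in this class, against 841 and 358 CPM in neutrophil-like cells. The cluster of neutrophil-like cells held 13.9% of the class at day 2 and 1.42% at day 7. What part those cells have in the calls of this class was not tested. Day 7 over non-lesional skin gave 3 of 5 higher (Il1a, Il1b and Il1rn) and none lower, against 13.3% and 13%. Relative to day 2, the day 7 level was higher for none of 6 and lower for 5, all but Il1r1, against 10% and 4.46%. In dendritic-like cells at day 2 over non-lesional skin 4 of 6 were higher (Il1a, Il1b, Il1rn and Il1r2) and none lower, against 17.5% and 7.02%, with 71.4% of calls higher and 61.2% under TMM factors. At day 7 over non-lesional skin 3 of 5 were higher (Il1b, Il1rn and Il1r2) and none lower, against 13.5% and 5.41%. Relative to day 2, the day 7 level was higher for 1 of 6 (Il1rap, with 25.3 CPM at day 7 and 8.91 CPM at day 2) and lower for 2 (Il1a and Il1rn), against 2.47% and 1.85%. Of those calls 57.1% were higher, and 68.9% under TMM factors. In neutrophil-like cells at day 7 over day 2 none of the members was higher and 1 lower (Il1r1), against 6.21% and 14.7%. That call is of 0 UMIs at day 7 against 35 UMIs at day 2, whose share of the fibroblast-like level equalled that of the fibroblast markers. With 3 UMIs put in place of 0, the day 7 level would be 1.22-fold lower. The counting interval of the ratio of day 7 to day 2 reached up to 1.07, so it includes no difference.

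In lymphoid-like cells at day 2 over non-lesional skin 3 of 5 were higher (Il1b, Il1rn and Il1r2) and none lower, against 16.6% and 11.1%, with 59.9% of calls higher and 41.9% under TMM factors. Il1b in these cells, with 19 UMIs at day 2, stood at 0.582% of its neutrophil-like level and the neutrophil markers at 0.579%. Il1rn stood at 1.28%, and what part of either gene's UMIs is free RNA was not tested. Both genes had 2 UMIs in these cells in non-lesional skin. Day 7 over non-lesional skin gave Il1b, Il1rn and Il1r2 higher and Il1r1 lower, against 14.3% and 4.14%, with 77.5% of calls higher and 48% under TMM factors. Relative to day 2, none of 5 was higher at day 7 and 4 were lower (all but Il1r2), against 11.9% and 3.81%. In keratinocyte-like cells at day 7 over non-lesional skin none of 6 was higher and 1 lower (Il1rn), against 4.56% and 4.13%. In pericyte- or smooth muscle-like cells at day 7 over non-lesional skin 2 of 5 were higher (Il1r2, and Il1b with 12 UMIs against 0) and none lower, against 16.8% and 8.31%, with 66.9% of calls higher and 49.1% under TMM factors. In Schwann- or melanocyte-like cells the 1 member measured, Il1rap, was not past 2-fold, against 15.0% of genes higher and 14.9% lower. TMM factors also moved the median log2 fold change of all genes in lymphoid-like cells (0.20 to -0.035 at day 2 and 0.32 to 0.034 at day 7 over non-lesional skin), in monocyte- or macrophage-like cells at day 2 (-0.15 to 0.0083), in dendritic-like cells at day 2 (0.20 to 0.056) and in pericyte- or smooth muscle-like cells (0.28 to 0.048).

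Other genes of the pathway (42 of a list of 45 in the table: further IL1 family ligands and receptors, adaptors, kinases, NF-kappaB and inflammasome genes) were counted in the same way. In fibroblast-like cells at day 2 over non-lesional skin 7 of 35 measured were higher and 3 lower, against 11.1% and 6.3% of all genes, with a median log2 fold change of 0.21 against 0.05 for all genes. Il33, an alarmin of the same family, had 560 CPM at day 2 and 34.0 CPM in non-lesional skin, and Il1rl1, its receptor, 274 and 4.12 CPM. Il18, another ligand of the family, had 7.32 and 27.7 CPM. Of 27 genes known to respond to IL1 in stromal cells, 15 were higher and 1 lower against the same shares of all genes (median log2 fold change 1.43). This list and the pathway list were written with earlier results of these data known, so the counts are a description and no test of enrichment. Saa3, Csf3 and Cxcl5 of this list are also among the leading genes of the day 2 clusters. The neutrophil-attracting chemokine Cxcl5 had 2639 CPM at day 2 and 0.191 CPM in non-lesional skin, and the acute-phase gene Saa3 7209 and 11.0 CPM. Between wounds 1 of the 27 was higher and 16 were lower at day 7 against 3.04% and 1.6% of all genes (median -1.15, against 0.03 for all genes). Csf3, which drives granulocyte production, had 13.7 CPM at day 7 and 155 CPM at day 2. Irak3, an inhibitory kinase of the pathway, had 22.7 CPM at day 7, against 69.3 CPM in non-lesional skin.

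In monocyte- or macrophage-like cells at day 2 over non-lesional skin 12 of 27 measured pathway genes were higher and 1 lower (median 0.36, against -0.15 for all genes), and 20 of 23 response genes were higher and none lower (median 3.76), against 13.3% of all genes higher and 19.4% lower. Fibroblast markers in these cells stood at 5.69% of their fibroblast-like level at day 2, and Cxcl5 and Saa3, which are among the response genes, had 170 and 601 CPM there, against 2639 and 7209 CPM in fibroblast-like cells. What part of the response genes is free RNA was not tested. Nlrp3, the sensor of the inflammasome that activates caspase 1, had 661 CPM at day 2 and 87.4 CPM in non-lesional skin. Ptgs2, which makes prostaglandins, had 12837 CPM at day 2 and 210.5 CPM in non-lesional skin. In dendritic-like cells 16 of 34 pathway genes were higher and 2 lower at day 2 over non-lesional skin, against 17.5% and 7.02% of all genes (median 0.93, against 0.20 for all genes). Among these Il18 was lower, with 2.23 CPM at day 2 and 44.8 CPM in non-lesional skin. At day 7 over non-lesional skin Nlrp3 had 227 CPM in dendritic-like cells, against 44.8 CPM. In keratinocyte-like cells 1 of 38 pathway genes was higher and 2 lower at day 7 (median 0.0088), and 7 of 25 response genes were higher and 3 lower (median 0.36), against 4.56% of all genes higher and 4.13% lower (median 0.036). Among these the chemokine Cxcl1 had 131 CPM at day 7 and 18.0 CPM in non-lesional skin.

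Whether the genes occur in the same cells was read after each cell was thinned to 1 number of UMIs. At 5000 UMIs, which left 5331, 3711 and 2139 fibroblast-like cells in non-lesional skin, day 2 and day 7, Il1r1 was seen in 30.1%, 50.3% and 31.4% of them, Il1r2 in 74.5%, 19.5% and 10.9%, and Il1rap in 26.3%, 9.19% and 10.4%. Il1r1 and Il1rap were seen together in 7.15% (6.47 to 7.87), 5.04% (4.36 to 5.79) and 3.88% (3.10 to 4.79) of cells. The products of the single shares were 7.91%, 4.62% and 3.28%, and the observed share was 0.903, 1.09 and 1.18 times the product. Without thinning, 31.6% of fibroblast-like cells at day 2 held both (1281 of 4050), against 28.5% from the product, with medians of 26266.5 UMIs at day 2 and 9396 in non-lesional skin, where 18.2% held both. Il1r1 and Il1r2 were together in 23.8%, 10.7% and 3.32% of thinned cells, against products of 22.4%, 9.83% and 3.42%. For comparison, Il1r1 was seen in 1.65% of neutrophil-like cells at day 2 when both classes were thinned to 1000 UMIs, against 13.9% of fibroblast-like cells.

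In neutrophil-like cells of day 2 thinned to 1000 UMIs (786 of 1887 cells), Il1b was seen in 98.3%, Il1rn in 88.2% and both in 86.8%, against a product of 86.7%, while fibroblast-like cells of that library at the same number showed Il1b in 3.08% and Il1rn in 2.78%. Il1r2 and Il1rap were seen together in 12.5%, equal to their product. In monocyte- or macrophage-like cells Il1b and Il1rn were seen together more often than their product, in 44.8% against 40.1% at day 2 (116 cells) and in 30.3% against 24.3% at day 7 (208 cells). In the same cells Il1a and Il1b were together in 34.5% against 27.2% at day 2. In dendritic-like cells the ligand Il1b and the decoy Il1r2 were together in 21.7% against 16.7% at day 2 and in 26.0% against 20.8% at day 7. No test of these differences was made.

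Across 22 sums of a class in a library, each of 50 or more cells and sharing libraries and depth, the genes whose levels followed those of a member most closely among 7560 genes were listed by Pearson r of log2 CPM. They were Tarm1 (0.977), Hk3 (0.974) and Fcgr4 (0.973) for Il1a, and for Il1b Fgr (0.978) and Pira2 (0.968) were among them. For Il1rn they were Irg1 (0.948), Arg2 (0.931) and Clec4d (0.930), the last of which is itself a neutrophil marker of the classes. The receptors had looser partners: Pck2 (0.809), Gem (0.803) and Adarb1 (0.801) for Il1r1, Antxr2 (0.816), Sp140 (0.808) and Birc3 (0.801) for Il1r2, and Blcap (0.836), G0s2 (0.831) and Rab44 (0.815) for Il1rap. Among the members themselves r was 0.870 for Il1a with Il1rn, 0.810 for Il1b with Il1rn and 0.767 for Il1a with Il1b, but -0.123 for Il1r1 with Il1r2 and -0.546 for Il1b with Il1r1.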

How the data were processed

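Tables of UMI counts per gene and cell barcode, deposited by the authors for 3 libraries, were used as raw counts. Per the submitters' processing notes they were made with Cell Ranger 3.0.2 and mm10, and Seurat 3.0 is named; the matrix header of the deposited files gives Cell Ranger 5.0.0, and which of them applies was not resolved. Barcodes with under 200 genes or over 10% mitochondrial UMIs were dropped, as were those with the highest Scrublet scores, 0.8% per 1000 barcodes, because the score threshold itself marked 373, 1 and 0 barcodes. Classes came from 15 marker lists (128 of 132 markers in the table): a cell's mean log marker level, relative to that of the 30 highest-scoring cells, had to reach 0.35 for fibroblast, neutrophil and erythroid classes and 0.2 for others, with at least 2 markers and a runner-up at no more than 0.75 of it. Cells were also clustered (2000 variable genes, 30 components, 20 neighbours, Leiden resolution 1, 31 clusters). UMIs were summed by class and library. Classes were compared where both libraries had 50 cells. Log2 fold changes had 5 CPM added, genes needed 10 UMIs over the pair, and 2-fold was called. With 1 library a group there are no p-values. Genes named beside the 6 members are list genes with the largest fold changes (20 CPM or more in the higher library) and the 3 genes most like each member over sums, among genes reaching 50 CPM; 1 of these is not reported here. The members, lists and rules were chosen with earlier results of these data known. Thinning to 5000 UMIs and the limits for a closer look were set after seeing the data. Alternatives included TMM factors, median-of-ratios factors, a pseudocount of 1 CPM, 500 genes per cell and thinning to 1000 or 2000 UMIs. The fold calculation was tested on simulated data. Tools were Python 3.11.15, numpy 2.4.6, scipy 1.17.1, pandas 2.3.3, scanpy 1.11.5, scikit-learn 1.9.0, leidenalg 0.10.2, R 4.3.3 and edgeR 4.0.16, used for TMM factors only.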

Additional observations from a re-analysis of the deposited data

Results flagged for a closer look

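Classes moved in opposite directions for 2 genes, and these differences were not tested, since each library is 1 sample. For Il1r2 at day 2 over non-lesional skin the log2 fold change was -3.12 in fibroblast-like cells and 1.09 in dendritic-like cells. At day 7 over non-lesional skin it was -3.74 in fibroblast-like cells, 1.94 in dendritic-like, 2.17 in T, NK or innate lymphoid-like and 2.12 in pericyte- or smooth muscle-like cells. For Il1rn at day 7 over non-lesional skin it was -1.41 in keratinocyte-like and 6.38 in monocyte- or macrophage-like cells. Only genes with 50 UMIs over the pair, 20 CPM in the higher library and UMIs in both libraries were considered. Cells that fell in no class, which no comparison used, carried ligand UMIs. Il1b had 50.9 CPM in them in non-lesional skin, 7071 CPM at day 2 and 868 CPM at day 7. Il1rn had 0.619, 1247 and 192 CPM, and Il1a 0 UMIs, 366 CPM and 36.8 CPM in the same order. At day 2 these cells had a median of 1426 UMIs, and in them fibroblast markers summed to 4292 CPM, neutrophil markers to 1573 CPM and monocyte or macrophage markers to 732 CPM. Of 363 day 2 cells in the cluster led by Pf4, Arg1 and Rsad2, 113 were monocyte- or macrophage-like. How many of the others lay in no class was not counted.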

How the results depend on the processing

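No paired analysis was possible because each group has 1 library, and no replicate could be left out. Fold changes past 2-fold with 0 UMIs in 1 of the libraries were not checked under the alternatives. These were Il1r1 in neutrophil-like, Il1a and Il1rn in dendritic-like and Il1b in pericyte- or smooth muscle-like cells. All 43 member fold changes past 2-fold with UMIs in both libraries kept their direction wherever an alternative gave a value. They stayed past 2-fold in 39 of 43 under TMM or median-of-ratios factors, in 31 of 35 by cluster-based classes, and in 30 of 38, 23 of 31 and 12 of 17 when cells were thinned to 1000, 2000 and 5000 UMIs. Il1r1 in fibroblast-like cells at day 2 over non-lesional skin (log2 1.01) was 0.77 and 0.76 under the 2 scalings and 0.70, 0.77 and 0.85 with thinning. At day 7 (0.28) it was -0.12 and -0.14 under the scalings and -0.22, 0.059 and 0.082 with thinning. Il1r2 at day 2 (-3.12) was -3.36 and -3.37 under the scalings, -3.23 with 1 CPM added, -3.07 with doublets kept, and -3.29, -3.18 and -3.18 with thinning. The Il1b share of neutrophil-like cells at day 2 (49.4%) was 28.6% with 500 genes required, 47.5% with doublets kept, 50.2% by clusters, and 63.7%, 22.9% and 2.02% with thinning, which drops shallow cells. The Il1rn per Il1b ratio of monocyte- or macrophage-like cells at day 2 (0.20) was 0.183 with 500 genes, 0.158 by clusters and 0.144 at 2000 UMIs. Co-detection of Il1r1 and Il1rap at day 2 (31.6%) was 30.1% without the mitochondrial limit and 0.226%, 0.896% and 5.04% with thinning. Counts over all genes in fibroblast-like cells were 1783 higher and 1016 lower at day 2 over non-lesional skin, and 2848 and 1689 with 1 CPM added. At day 7 they were 1280 and 654, 2514 and 1078 with 1 CPM added, and 703 and 1113 under TMM factors. The cause of these differences was not tested. Only 1 keratinocyte-like cell was kept at day 2, so that library gives no keratinocyte values, and depth limits what can be seen per cell in neutrophil-like cells.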
